A study of Drosophila melanogaster with 25 samples.

Results

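The 60 genes described here were listed by FlyBase identifier as genes of cytoplasmic ribosomal proteins, and their rows were taken from every count file. They are 60 of 16037 gene identifiers in the files. All 60 passed the filter on low counts, which kept 9961 identifiers for testing. The study isolated RNA bound to 2 proteins from nuclear extracts of 2 Drosophila melanogaster cell lines and sequenced it as polyadenylated RNA, a method known as RNA immunoprecipitation sequencing. In Kc167 cells (Kc below), an embryonic line with properties of blood cells, antisera against Shep named Rb5 (3 libraries), Rb6 (2 libraries) and Gp01 (2 libraries) and an antiserum against Su(Hw) named Gp60 (3 libraries) were set against 6 libraries of input nuclear RNA. In BG3 cells, a line from the larval central nervous system, Shep Rb5 (2 libraries) and Su(Hw) Gp60 (2 libraries) were set against 2 input libraries. The labels give no genetic change or drug treatment of either line, and no precipitation with an unrelated serum was analysed here, so each fold over input holds specific and non-specific recovery together.

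Cytoplasmic ribosomal proteins join with ribosomal RNA to form the small and large subunits of the ribosome, which translates mRNA into protein. Their genes are transcribed strongly in growing cells, and their mRNAs are short, abundant and used together. Su(Hw) binds DNA through zinc fingers at chromatin insulators, elements that limit contact between enhancers and promoters, and Shep is an RNA-binding protein known to modulate insulator activity in the nervous system. The files and the reference table pair none of the 60 identifiers with a symbol, so each gene is named by its identifier and no subunit is assigned.

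The 22 distinct libraries held between 6190633 and 59066733 reads assigned to genes, and the lowest count of any of the 60 genes in any library was 4930 reads. The labels number the libraries as biological replicates without saying that they came from separate cultures, so p-values measure the spread between these libraries. Alignments counted as not unique, to more than 1 place, were not assigned to genes. They took between 35.0% and 86.6% of all counts in a file, with 72.7% to 86.6% in BG3 libraries and at most 79.6% in Kc libraries. Whether a read with several alignments enters these counts more than once was not checked, so they may not be shares of reads. Of the cell line markers listed, 2 of 26 could be matched: Idgf3 stood at 1.42 to 2.56 CPM (reads scaled to a common library size) in BG3 inputs and at 114 to 195 CPM in Kc inputs, and lncRNA:roX1, a dosage compensation RNA of male cells, at 0.110 to 0.373 CPM in BG3 inputs and at 0 to 0.125 CPM in Kc inputs. CPM here are scaled by TMM factors, which correct library totals for composition and ran between 0.410 and 1.52. A factor below 1 raises CPM and a factor above 1 lowers it, and the factors differed by antiserum. They were 0.655 to 0.894 for Kc Su(Hw), 0.410 and 0.731 for BG3 Su(Hw), and 0.824 to 0.988 for inputs. Shep libraries had 1.27 to 1.52 in Kc and 1.09 and 1.27 in BG3. In BG3 Su(Hw) library 1 the 60 genes summed to 1080000 CPM, though they took 44.2% of its gene-assigned reads. CPM are not corrected for length, so between genes they rank reads and not molecules, and levels of single genes are compared only within a gene.

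Ribosomal protein mRNAs were among the RNAs with the most reads in both nuclear inputs. Their mean level lay between 676 and 9337 CPM in BG3 inputs, with a median of 4045 CPM where the median of all tested genes was 12.2 CPM. In Kc inputs it lay between 518 and 6244 CPM, with a median of 2842 CPM where all tested genes had 11.3 CPM. Of the 100 genes with the highest CPM, 55 were on the list in BG3 inputs and 53 in Kc inputs. Other tested genes whose input CPM fell inside the list's range, 119 in BG3 and 169 in Kc, served as genes of like input level. Ribosomal protein genes that are not among the 60 were not separated from them, since identifiers lack symbols.

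The share of each library taken by the 60 mRNAs differed with the antiserum. With Su(Hw) in Kc cells they took 38.5%, 37.8% and 33.3% of all gene-assigned reads (36.5% ± 2.83, SD, n = 3), against 17.9% ± 2.81 (SD, n = 6; 14.2% to 22%) in Kc inputs, and the 2 groups did not overlap. Shep Rb6 libraries also lay above every input, at 22.8% and 24.3%. Shep Rb5 libraries, at 16.3%, 17.6% and 14.3%, lay within the range of the inputs, and Shep Gp01 libraries, at 14.2% and 11.5%, lay just below and below its lower end. In BG3 cells the share was 44.2% and 28.1% with Su(Hw), 32.7% and 21.0% with Shep Rb5, and 27.4% and 16.5% in the inputs. In each of the 3 BG3 groups library 1 held the larger share, so the groups overlapped, while within a replicate number the order was Su(Hw), then Shep Rb5, then input. Genes of like input level did not follow the same order in Kc cells: the 169 genes took 24.9% to 28.8% of Su(Hw) libraries, 25.6% to 30.1% of Shep Rb5 libraries and 19.8% to 26.2% of inputs.

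**Figure D1:**
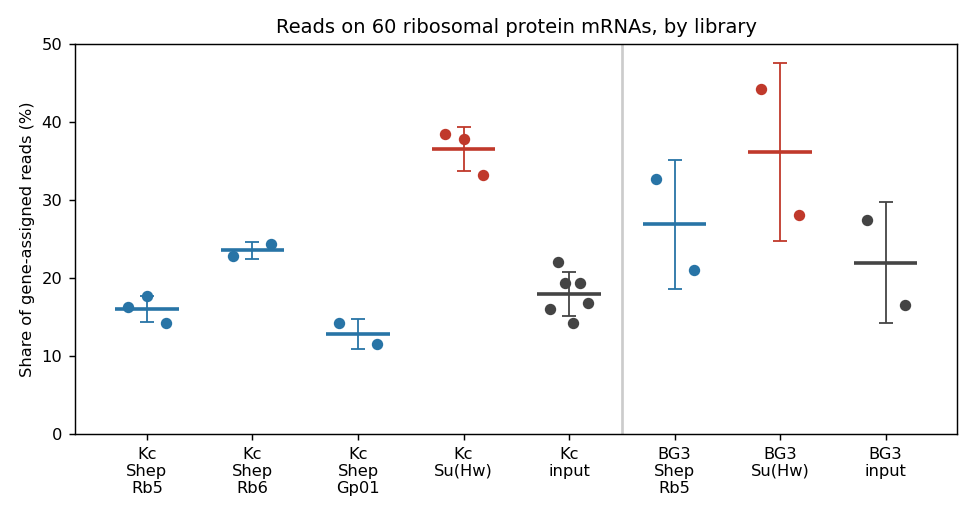
Share of gene-assigned reads on the 60 ribosomal protein mRNAs (y axis, percent) in each library (points), with the group mean (line) and SD (bar), for 5 groups of Kc and 3 groups of BG3 libraries. The 3 Kc Su(Hw) libraries, from 33.3% to 38.5%, sit above all Kc inputs (14.2% to 22%), and the BG3 groups overlap, with library 1 the higher in each.

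Su(Hw) precipitates from Kc cells held more of most ribosomal protein mRNAs than the input. Of the 60 genes, 51 rose and none fell by edgeR's quasi-likelihood test at an adjusted p under 0.05, where 13% of all tested genes rose and 24.2% changed either way. The median log2 fold over input was 1.31 for the 60 genes and 0.11 for all tested genes, and 59 of the 60 lay above 0. All Su(Hw) libraries lay above all inputs for 52 genes, a pattern that 8.05% of all tested genes showed. Of the 169 genes of like input level, 30 rose and 26 fell, with a median of -0.01. Those genes sit mostly at the lower end of the list's levels, and the 16 of them inside the list's interquartile range of input CPM had a median of 0.66, with 7 higher and 2 lower.

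FBgn0002590 showed the highest fold of the list in Kc Su(Hw). Its level was 17116, 22984 and 14870 CPM in Su(Hw) libraries, against a lowest of 2152, a median of 2395 and a highest of 3829 CPM in the 6 Kc inputs. Every Su(Hw) library was above every input, with a log2 fold of 2.73 ± 0.30 (SE; edgeR adjusted p = 1.7e-05). FBgn0002622 had 13946, 15201 and 11143 CPM with Su(Hw), against 2301 to 3348 CPM in the inputs (median 2864 CPM), again without overlap (log2 fold 2.14 ± 0.29, edgeR adjusted p = 0.000132). FBgn0031980 had 16571, 22018 and 10592 CPM with Su(Hw) and 2938 to 5537 CPM in the inputs (median 4153 CPM), with a log2 fold of 1.88 ± 0.34 (by edgeR adjusted p = 0.00117). At the other end of the list the groups overlapped. FBgn0002593 had 2471, 3540 and 2729 CPM with Su(Hw), all inside the inputs' range of 1899 to 4016 CPM, and its log2 fold was -0.09 ± 0.39 (adjusted p = 0.882 by edgeR). FBgn0010078 (0.15 ± 0.34) and FBgn0036825 (0.26 ± 0.32) had log2 folds within their errors of 0 and overlapped their inputs too.

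Within the sequencing classes that hold both groups the Kc Su(Hw) median kept its sign: it was 1.46 among libraries of the older instrument (Genome Analyzer II, 1 precipitate and 2 inputs), 1.07 among HiSeq libraries of the earlier quality encoding (1 and 2) and 1.57 among samples run on both (1 and 1). Leaving out 1 library at a time left between 36 and 53 of the 60 genes higher.

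Su(Hw) precipitates from BG3 cells showed the same direction: 44 of the 60 genes rose and none fell, where 14.5% of all tested genes rose and 27.5% changed either way. The median log2 fold was 1.55 for the list and 0.18 for all tested genes, and all 60 values lay above 0. Both Su(Hw) libraries lay above both inputs for 39 genes, a pattern that 32.3% of all tested genes showed with so few libraries. Among the 119 genes of like input level 23 rose and 31 fell, with a median of -0.27. The 15 of them inside the list's interquartile range had a median of 1.14, with 8 higher and 1 lower. That is 53.3% higher, where the list had 73.3%.

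FBgn0000100 had the highest BG3 fold. Its level was 16956 and 6323 CPM in Su(Hw) libraries, against 2592 and 1366 CPM in inputs, with no overlap (log2 fold 2.56 ± 0.49, edgeR adjusted p = 0.00105). FBgn0003517 had 24295 and 6715 CPM with Su(Hw), against 4288 and 1370 CPM in inputs (log2 fold 2.45 ± 0.58, edgeR adjusted p = 0.00462). FBgn0004867 had 31936 and 7736 CPM with Su(Hw), against 5323 and 1965 CPM in inputs (log2 fold 2.44 ± 0.58, edgeR adjusted p = 0.00458). For each of these genes library 1 was the higher of its pair in both groups. The lowest folds belonged to FBgn0019936 (0.37 ± 0.46), FBgn0040007 (0.42 ± 0.44) and FBgn0017545 (0.42 ± 0.30), none of which passed the test. FBgn0019936 had 6669 and 1883 CPM with Su(Hw) and 4350 and 2263 CPM in the inputs, so its second precipitate lay below both inputs.

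The BG3 count rested on single libraries. Without Su(Hw) library 1 only 1 gene passed and the median was 0.60, and without input library 2 only 5 passed and the median was 1.15. Fitted on the 4 BG3 libraries concerned alone, no gene passed by edgeR (8 at an unadjusted p under 0.05), with a median of 1.64. With library totals in place of TMM factors 18 rose.

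**Figure D2:**
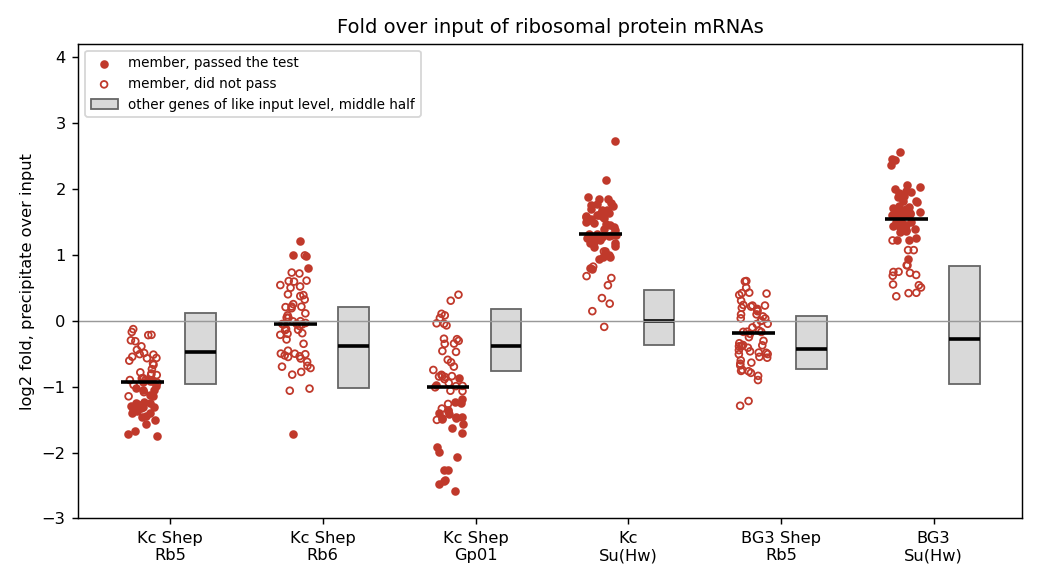
Fitted log2 fold over input (y axis) for the 60 ribosomal protein mRNAs in 6 precipitates (points, filled where the gene passed the test; line, median), with the interquartile range and median of other genes of like input level in grey. Su(Hw) medians of 1.31 in Kc and 1.55 in BG3 lie above 0, and the Kc Shep Rb5 and Gp01 medians of -0.93 and -1.0 lie below it.

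The lists of genes that rose with Su(Hw) were set side by side. Of the 60 genes, 43 rose in both lines (43 of the 51 in Kc and 43 of the 44 in BG3), 8 passed in Kc alone, FBgn0002626 passed in BG3 alone, and 8 passed in neither. Those 8 were FBgn0002579, FBgn0002593, FBgn0003274, FBgn0005533, FBgn0010078, FBgn0016726, FBgn0036825 and FBgn0086472. FBgn0002626, just inside the threshold in BG3 (edgeR adjusted p = 0.048), was just outside it in Kc (edgeR adjusted p = 0.0524). The difference between lines was itself tested as an interaction: no gene of the list passed by edgeR or DESeq2, 1 had an unadjusted p under 0.05, and the smallest adjusted p was 0.319, where 2.59% of all tested genes passed. The median difference was 0.15 (BG3 minus Kc), and it ranged between -0.81 and 0.67 when single libraries were left out.

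Across the 60 genes the Kc and BG3 Su(Hw) folds, which share no library, had a Pearson r of 0.654 and a Spearman rho of 0.736. The same measure was 0.795 over the 95 other genes of like input level in both lines and 0.467 over all 9961 tested genes, so a like order of genes was not found on this list alone. All points share the libraries, the scaling and the genes' sequence, and no p is attached.

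**Figure D3:**
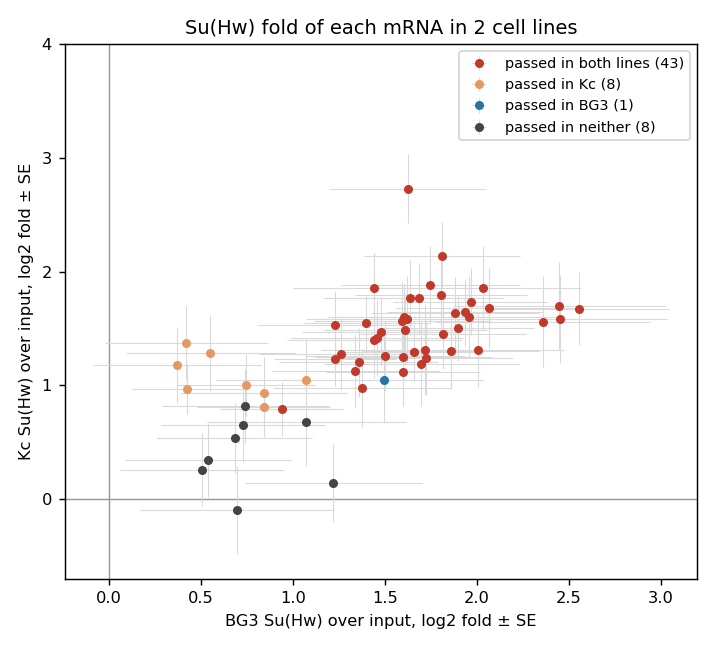
Log2 fold of Su(Hw) over input in BG3 (x axis) and Kc (y axis) for each ribosomal protein mRNA, with SE bars, coloured by the lines in which it passed the test. The 43 genes that passed in both lie at the upper right, and the 8 that passed in neither lie at the lower left, with Kc folds as low as -0.09.

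By TMM-scaled levels, Shep Rb5 precipitates from Kc cells held less of the ribosomal protein mRNAs than the inputs. The list's share of gene-assigned reads, set against the same-numbered input, gave ratios of 1.02, 0.80 and 0.74, so it was not lower in library 1. None rose and 29 of 60 fell, where 14.9% of all tested genes fell and 29.8% changed either way. The median log2 fold was -0.93, against 0.08 for all tested genes, and all 60 values lay below 0, between -1.74 and -0.13. For 38 genes every Rb5 library lay below every input, as for 12.2% of all tested genes. Genes of like input level leaned the same way, with 63 of 169 lower, 11 higher and a median of -0.47. The 16 of them inside the list's interquartile range had a median of -0.54 with 7 lower, a share (43.8%) close to the list's 48.3%.

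FBgn0002579 fell most. It had 873, 1040 and 655 CPM in Rb5 libraries, against 2113 to 4452 CPM in the inputs (median 3039 CPM), so each precipitate was below each input (log2 fold -1.74 ± 0.38, edgeR adjusted p = 0.00203). FBgn0034968 had 841, 973 and 736 CPM with Rb5 and 1960 to 2969 CPM in the inputs (median 2535 CPM), also apart (log2 fold -1.72 ± 0.39, edgeR adjusted p = 0.00274). FBgn0010078 fell as well (log2 fold -1.67 ± 0.39, edgeR adjusted p = 0.00371), though its highest Rb5 value of 1848 CPM reached just above its lowest input of 1794 CPM. The least changed were FBgn0019936 (-0.13 ± 0.36), FBgn0064225 (-0.17 ± 0.26) and FBgn0028697 (-0.21 ± 0.30), each with overlapping libraries. The median was -0.81 within the Genome Analyzer II libraries and -1.11 within the samples run on both instruments. The count of 29 fell to 3 without Rb5 library 3 and to 17 without Kc input 3, where FBgn0010078 had an adjusted p of 0.0538 without Rb5 library 3; with library totals in place of TMM factors 10 genes fell.

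Shep Gp01 precipitates from Kc cells also held less of the list, with a wider spread between genes. None rose and 26 fell, where 9.92% of all tested genes rose, 10.2% fell and 20.2% changed either way, and the median was -1.0, against 0.09 for all tested genes. Both Gp01 libraries lay below all 6 inputs for 49 genes, as for 12.2% of all tested genes. The folds ran between -2.58 and 0.39, with an SD across the list of 0.73, where the Rb5 folds had an SD of 0.41. Of the 169 genes of like input level 37 fell and 5 rose, with a median of -0.38. The 16 inside the list's interquartile range had a median of -0.60 with 6 lower, 37.5% where the list had 43.3%.

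FBgn0002593 had 664 and 508 CPM with Gp01, against 1899 to 4016 CPM in Kc inputs (median 3537 CPM), which gave -2.58 ± 0.53 on the log2 scale (edgeR adjusted p = 0.00224). FBgn0003274 had 995 and 665 CPM with Gp01, against 4027 to 6756 CPM in the inputs (median 5302 CPM), which gave -2.48 ± 0.53 (edgeR adjusted p = 0.00332). FBgn0019936, which had hardly moved with Rb5, had 510 and 306 CPM with Gp01, against 1660 to 2899 CPM in the inputs (median 2156 CPM; log2 fold -2.43 ± 0.45, edgeR adjusted p = 0.00117). In all 3 cases the precipitates stood well below every input. At the top of the list FBgn0003279 (0.39 ± 0.37), FBgn0020910 (0.30 ± 0.38) and FBgn0003517 (0.11 ± 0.49) overlapped their inputs and did not pass. FBgn0020910 had 1906 and 1684 CPM with Gp01, against 1213 to 1734 CPM in the inputs. The number that fell was 3 without Gp01 library 1, 4 without Gp01 library 2 and 13 without Kc input 6, and the adjusted p of FBgn0002593 and FBgn0003274 lay between 0.054 and 0.0730 without either Gp01 library.

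Shep Rb6 gave a mixed result. The median was -0.05, against 0.19 for all tested genes. By edgeR 5 genes passed, 4 higher and 1 lower, where 14% of all tested genes rose, 15.9% fell and 29.9% changed either way. The list's share was below that background. Both Rb6 libraries lay above every input for 8 genes, as for 20% of all tested genes. They lay below every input for 15 genes, as for 18.3%. FBgn0064225 had 11614 and 13902 CPM with Rb6, against 4728 to 7645 CPM in Kc inputs (median 5814 CPM), and both precipitates were above every input (log2 fold 1.21 ± 0.29, edgeR adjusted p = 0.00407). FBgn0028697 had 8149 and 11165 CPM with Rb6, against 3500 to 5735 CPM in the inputs (log2 fold 0.99 ± 0.32, edgeR adjusted p = 0.0273). The other members that rose were FBgn0014026 (log2 fold 0.99 ± 0.35) and FBgn0032987 (0.80 ± 0.29), with edgeR adjusted p of 0.0424 and 0.0431, close to the threshold. FBgn0039713 had a log2 fold of 0.99 ± 0.46 with overlapping libraries and did not pass (edgeR adjusted p = 0.108).

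The single gene that fell with Rb6 was FBgn0002593, at 960 and 1181 CPM with Rb6 and at 1899 to 4016 CPM in the inputs (log2 fold -1.72 ± 0.51, edgeR adjusted p = 0.0154). FBgn0002579 (-1.06 ± 0.42) and FBgn0034968 (-1.03 ± 0.43) lay below all inputs in both libraries but had edgeR adjusted p of 0.0637 and 0.0801. The count of 5 was 0 without Rb6 library 1, 1 without Rb6 library 2 or Kc input 6, and 2 to 9 without the other libraries, so single calls here rest on few libraries. The direction was not settled either. The median was 0.01 with DESeq2's size factors and 0.30 with library totals, which gave 11 genes higher and 1 lower, while the replicate block gave -0.30, with 3 higher and 12 lower.

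**Figure D4:**
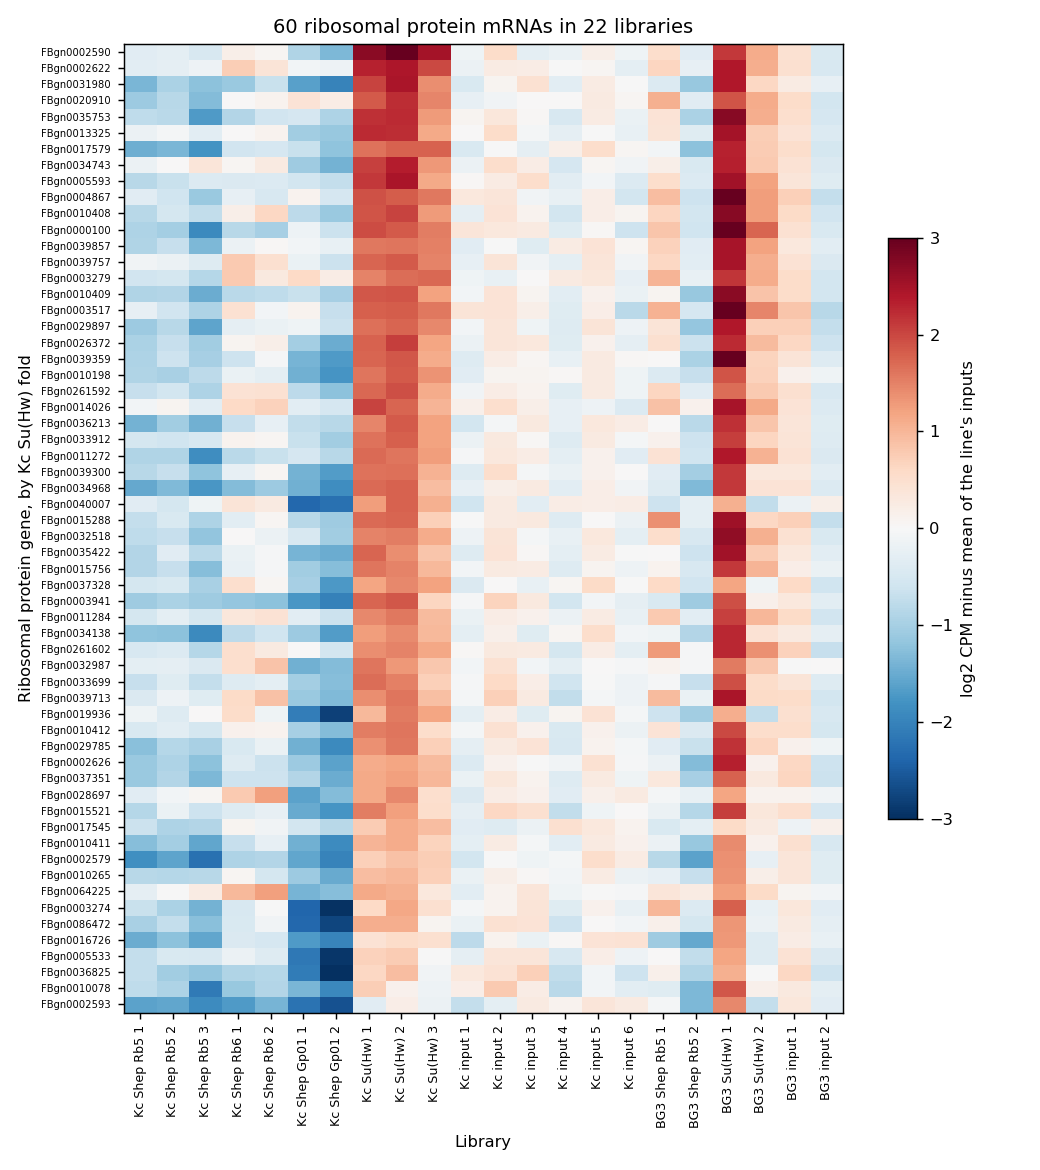
Log2 CPM minus the mean log2 CPM of the same line's inputs (colour, blue lower and red higher, ending at -3 and 3) for the 60 ribosomal protein genes (rows, ordered by Kc Su(Hw) fold) in 22 libraries (columns). Su(Hw) columns are mostly red in both lines, with BG3 Su(Hw) library 1 the deepest, and Kc Shep Gp01 and Rb5 columns mostly blue.

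In BG3 cells Shep Rb5 moved no gene of the list past the threshold by edgeR, where 6.22% of all tested genes rose, 4.76% fell and 11% changed either way. DESeq2 called 2 lower, where it called 754 of all 9961 tested genes lower and 878 higher. By edgeR 2 genes had an unadjusted p under 0.05, both lower. The median was -0.18, against 0.17 for all tested genes, and both Rb5 libraries lay below both inputs for 11 genes, as for 21.8% of all tested genes. FBgn0016726 came closest, with 944 and 680 CPM with Rb5, against 2288 and 1683 CPM in BG3 inputs, both precipitates below both inputs (log2 fold -1.29 ± 0.43, edgeR adjusted p = 0.0575). FBgn0002579, the gene that fell most with Rb5 in Kc cells, had 4315 and 2526 CPM with Rb5, against 9865 and 6055 CPM in BG3 inputs, also without overlap (log2 fold -1.22 ± 0.46, edgeR adjusted p = 0.0924). FBgn0019936 followed at -0.90 ± 0.46. The highest values, 0.60 ± 0.46 for FBgn0261602, 0.60 ± 0.55 for FBgn0015288 and 0.50 ± 0.40 for FBgn0014026, came with overlapping libraries. Of the 119 genes of like input level 16 fell and none rose, with a median of -0.42. The 15 of them inside the list's interquartile range had a median of -0.37, and none passed.

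The Rb5 folds of the 2 lines differed by a median of 0.77 (BG3 minus Kc), with 57 of 60 differences above 0. Over all tested genes the median was 0.07, with 5433 of 9961 above 0. The 95 genes of like input level had 0.36. The 6 of them inside the list's interquartile range in both lines had 0.61, close to the list. No gene of the list passed the interaction test by edgeR or DESeq2, 6 had an unadjusted p under 0.05, and the smallest adjusted p was 0.299, where 0.0904% of all tested genes passed. A lower level of these mRNAs with Rb5 in Kc cells than in BG3 cells, relative to input, was therefore not shown gene by gene. Across the 60 genes the Rb5 folds of the lines had an r of 0.454 (rho 0.486), against 0.545 over the 95 genes of like input level and 0.426 over all tested genes.

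Set directly against Su(Hw) precipitates, which needs no input, the Shep precipitates were poorer in these mRNAs. With Shep Rb5 in Kc cells all 60 genes were lower than with Su(Hw), where 13.9% of all tested genes were lower and 26.6% differed either way. Of the 169 genes of like input level 53 were lower, with a median of -0.38, and of the 16 inside the list's interquartile range 7 were lower, with a median of -0.95. The list's median log2 fold of Rb5 over Su(Hw) was -2.28, between -3.25 and -0.96. For all 60 genes every Rb5 library lay below every Su(Hw) library, as for 16.8% of all tested genes, while 16.2% lay above. FBgn0000100 stood at 1042, 982 and 532 CPM with Rb5 and at 7704, 7122 and 5806 CPM with Su(Hw), a log2 fold of -3.25. FBgn0064225 was the closest of the 60, at 4892, 5823 and 6959 CPM with Rb5 and at 13047, 12432 and 7342 CPM with Su(Hw), a log2 fold of -0.96. When libraries were left out singly, between 52 and 60 genes passed.

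In BG3 cells 41 of 60 genes were lower with Shep Rb5 than with Su(Hw), where 6.6% of all tested genes were lower, 7.73% higher and 14.3% differed either way. The median was -1.73, against -0.05 for the 119 genes of like input level, of which 23 were lower. The 15 of those inside the list's interquartile range came close to the list, with a median of -1.50 and 9 lower (60%, where the list had 68.3%). For 49 genes both Rb5 libraries lay below both Su(Hw) libraries, as for 24.7% of all tested genes, while 26.3% lay above. Only 1 gene passed without Rb5 library 2 or without Su(Hw) library 1, 10 passed with library totals, and none passed by edgeR with those 4 libraries fitted alone (20 at an unadjusted p under 0.05).

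The comparisons of Rb6 and Gp01 with Su(Hw) in Kc cells were added after other values had been seen. With Gp01, 54 of 60 genes were lower than with Su(Hw), where 3.97% of all tested genes were lower, 4.27% higher and 8.23% differed either way, with a median of -2.34; the 16 genes of like input level inside the list's interquartile range had -0.88, with 6 lower. That count was 2 without Gp01 library 1 and 12 without Gp01 library 2. With Rb6, 19 were lower, where 6.33% of all tested genes were lower, 5.98% higher and 12.3% differed either way, with a median of -1.25; those 16 genes had -0.79, with 4 lower. The Rb6 count was 0 without Rb6 library 1, 10 without Rb6 library 2 and 36 without either BG3 Su(Hw) library.

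The Shep antisera also differed among themselves. With Rb6, 23 genes were higher than with Gp01 and none lower, where 13.3% of all tested genes were higher and 28.2% differed either way. The median log2 fold of Rb6 over Gp01 was 0.98, against 0.01 for all tested genes, 0.05 for genes of like input level and 0.57 for the 16 inside the list's interquartile range. Both Rb6 libraries lay above both Gp01 libraries for 50 genes, as for 30.1% of all tested genes. FBgn0019936 had 3120 and 1971 CPM with Rb6, against 510 and 306 CPM with Gp01 (log2 fold 2.65 ± 0.48, edgeR adjusted p = 0.000483). FBgn0040007 had 3380 and 3128 CPM with Rb6, against 506 and 551 CPM with Gp01 (2.63 ± 0.47, edgeR adjusted p = 0.000406). FBgn0064225 had 11614 and 13902 CPM with Rb6, against 2245 and 2425 CPM with Gp01 (2.45 ± 0.35, edgeR adjusted p = 5.8e-05). In contrast, FBgn0000100 had 1110 and 1000 CPM with Rb6, against 1790 and 1266 CPM with Gp01 (-0.51 ± 0.46, edgeR adjusted p = 0.451), with every Gp01 value the higher. Between 6 and 9 genes passed when any of the 4 libraries was left out. Rb6 against Rb5, also added later, gave no gene past the threshold by edgeR, with 20 at an unadjusted p under 0.05, all higher with Rb6, and a median of 0.87. By edgeR 0.0502% of all tested genes passed, 0.0301% higher and 0.0201% lower. DESeq2 called 2 genes of the list higher, where it called 29 of all 9961 tested genes higher and 28 lower.

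**Figure D5:**
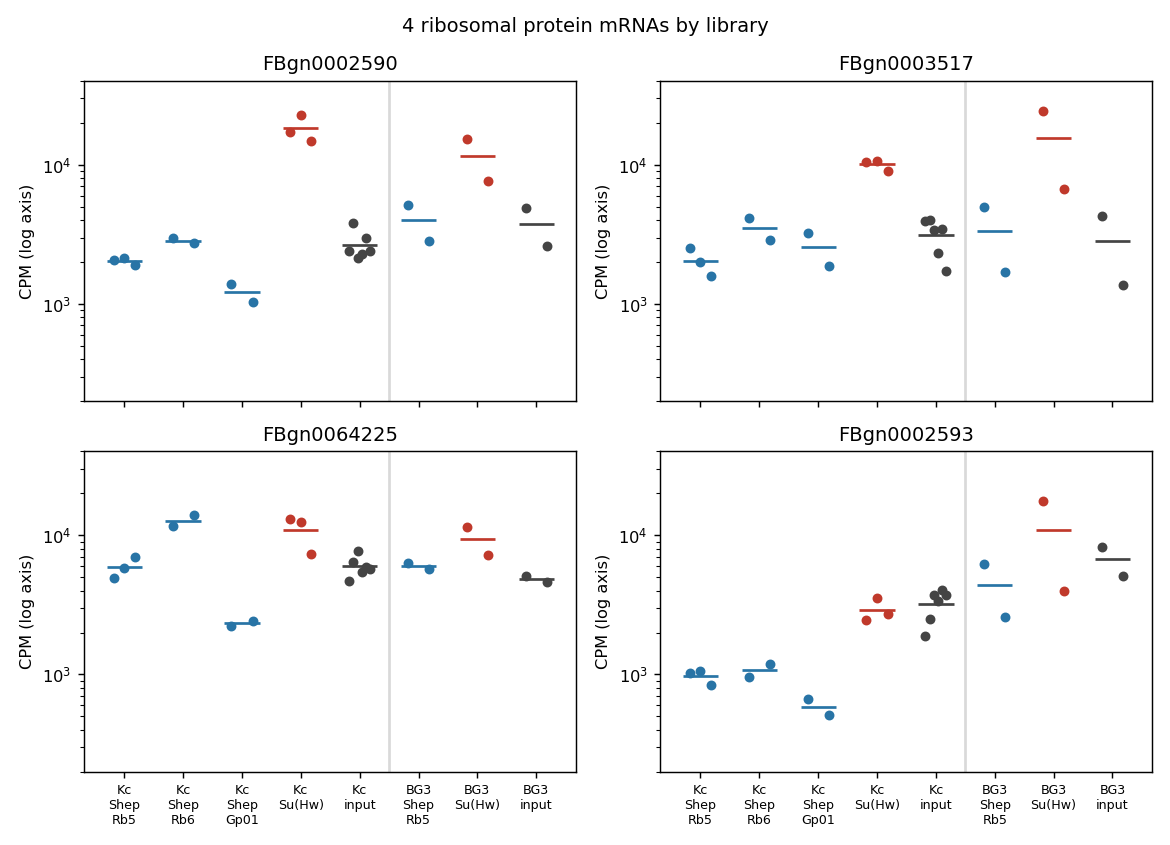
CPM (y axis, log scale) of FBgn0002590, FBgn0003517, FBgn0064225 and FBgn0002593 in each library (points) with the group mean (line), for 5 Kc and 3 BG3 groups. FBgn0002590 is at 14870 CPM or more in Kc Su(Hw), FBgn0064225 is at 11614 CPM or more in Shep Rb6, and FBgn0002593 is at 664 CPM or less in Shep Gp01.

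The order of genes was also set side by side for all 8 pairs of a Kc and a BG3 fold, which share no library. Across the 60 genes the Kc Gp01 fold and the BG3 Su(Hw) fold had an r of 0.704 (rho 0.687), against 0.262 over the 95 genes of like input level and 0.359 over all tested genes. The Kc Gp01 fold and the BG3 Rb5 fold had an r of 0.634 on the list, against 0.415 over genes of like input level, and the Kc Rb6 fold and the BG3 Rb5 fold an r of 0.682, against 0.667. Kc Su(Hw) and BG3 Su(Hw) had an r of 0.654 on the list, against 0.795 over genes of like input level. Kc Rb5 and BG3 Rb5 had 0.454, against 0.545. The remaining pairs had lower values on the list. Kc Rb6 and BG3 Su(Hw) had an r of 0.112, against 0.374 over genes of like input level and 0.36 over all tested genes. Kc Su(Hw) and BG3 Rb5 had 0.361 on the list, against 0.246 over genes of like input level and 0.421 over all tested genes. Kc Rb5 and BG3 Su(Hw) had -0.0777 on the list and -0.214 over genes of like input level. These are descriptions of genes that share libraries and scaling.

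Between the inputs of the 2 lines the list did not stand out in its count. Of the 60 genes, 14 were higher in BG3 inputs than in Kc inputs and none lower, which is 23.3% of the list where 23.9% of all tested genes were higher and 42.6% differed either way, so the count is at the background. The median log2 fold was 0.58, against 0.08 for all tested genes and 0.34 for the 95 genes of like input level. The 6 of those inside the list's interquartile range in both lines had a median of 0.61, so the list did not exceed them. FBgn0017545 differed most, with 7696 and 9594 CPM in BG3 inputs, against 1419 to 2585 CPM in Kc inputs (median 1808 CPM), without overlap (log2 fold 1.95 ± 0.26, edgeR adjusted p = 7.1e-06). FBgn0026372 had 13160 and 5514 CPM in BG3 inputs and 2708 to 4480 CPM in Kc inputs (1.59 ± 0.42, edgeR adjusted p = 0.00437), and FBgn0015521 had 4437 and 2224 CPM in BG3 inputs, the second of which lay just below the highest Kc input of 2228 CPM (1.55 ± 0.43, edgeR adjusted p = 0.00644). The lowest values, for FBgn0003279 (-0.28 ± 0.38), FBgn0032518 (-0.23 ± 0.41) and FBgn0064225 (-0.09 ± 0.30), did not pass. Only 1 gene passed without BG3 input 1, where FBgn0026372 and FBgn0015521 had adjusted p of 0.199 and 0.154, and 6 to 9 passed without Kc Su(Hw) library 3, Kc input 1 or Kc input 4. Across the 60 genes the log2 input levels of the lines had an r of 0.723.

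The fold changes also moved with the scaling of libraries. With library totals in place of TMM factors the median of all tested genes moved by between -0.51 and 0.61 in the 6 comparisons with input. The list's medians were then 0.97 for Kc Su(Hw), 0.81 for BG3 Su(Hw), -0.32 for Kc Shep Rb5 and -0.40 for Kc Shep Gp01, with the medians' signs kept, while BG3 Shep Rb5 turned to 0.29 and Kc Shep Rb6 to 0.30. TMM factors computed without the 60 genes gave 50, 44, 30 and 28 passing genes in the comparisons of Kc Su(Hw), BG3 Su(Hw), Kc Rb5 and Kc Gp01 with input, and moved those medians by less than 0.05.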

How the data were processed

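Nuclear RNA was sequenced in 25 samples of 8 groups. The deposited files hold the authors' raw read counts per gene identifier. Per the submitters' processing notes, cutadapt 1.2.1, TopHat2, Bowtie2, HTSeq and DESeq were used with genome build dm3; neither strand setting nor annotation release is named in the labels. Counts outside genes (50.2% to 91.2% of all counts in a file, not-unique alignments included) stayed out of library sizes. Of the samples, 3 in Kc cells (input 3, Shep Rb5 3, Su(Hw) 2) appear under 2 entries whose files do not differ, and each was used as a single library, which left 22 libraries.

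Genes were kept by edgeR's filterByExpr (minimum count 10, minimum total 15). One fit across all 9961 genes used TMM factors, group and sequencing class (instrument and quality encoding, 4 classes), with 11 residual degrees of freedom, and edgeR's quasi-likelihood test with Benjamini-Hochberg adjustment (R 4.3.3, edgeR 4.0.16, limma 3.58.1; DESeq2 1.42.0 as an alternative). The SE is the log2 fold divided by the square root of F. The script was tested on simulated data. The members, lists and comparisons were chosen with earlier results of these data known. Genes named are the 3 highest and 3 lowest folds of each comparison with input and between inputs, the highest and lowest input levels, and members called against the majority; names by role, other translation genes and most markers could not be matched to symbols. Genes named in the direct comparisons of antisera, and those that passed with Su(Hw) in BG3 alone or in neither line, were chosen after their values were seen. FBgn0014026 and FBgn0032987 were named with Rb6 because they passed there, outside these rules. Alternatives were other scaling factors, no count filter, no class, a replicate block, the compared groups alone, DESeq2 and each library left out.

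Same-numbered Kc Rb5 and input libraries deviated together from their group means (r of 0.698, 0.536 and 0.344 over 5501 genes with at least 10 CPM). Each Rb5 library had its highest r with the input of its own number, so they were taken as pairs. Here too the number goes with the sequencing class. Libraries 1 and 2 of both groups came from the Genome Analyzer II and library 3 from both instruments. Pairing and class were therefore not fully told apart. For Kc Su(Hw) and input r was -0.133, 0.0682 and -0.482.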

Additional observations from a re-analysis of the deposited data

Results flagged for a closer look

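FBgn0032987 stood apart in 1 Kc input: it had 8523 CPM in Kc input 2, where the other 5 inputs lay between 5045 and 6186 CPM. The gap to the nearest input was 0.672 of the whole range. This test was run on 30 sets of values, and about 1 in 20 such sets is marked by chance.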

How the results depend on the processing

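The Su(Hw) rises in both lines and the Rb5 and Gp01 falls in Kc cells kept their direction, by the list's median, under all alternatives run. Counts of passing genes moved by more than 1.5 times as follows; the cause was not tested. Without the count filter BG3 Rb5 against input had 2 (0 as reported), the Rb5 difference between lines 1 (0) and Kc Rb6 against Su(Hw) 33 (19). DESeq2 gave 2, 32 for Rb6 against Su(Hw) and 2 for Rb6 against Rb5 (0). Without the sequencing class Rb6 against Su(Hw) had 40. Library totals gave 10 for Kc Rb5 against input (29), 12 for Rb6 (11 higher and 1 lower), 1 for BG3 Rb5, 18 for BG3 Su(Hw) (44), 10 for BG3 Rb5 against Su(Hw) (41) and 9 for the inputs (14), which also had 9 with TMM factors free of the list. With only the compared groups, Rb6 against input had 8, BG3 Su(Hw) 0 (44), BG3 Rb5 against Su(Hw) 0 (41), the inputs 6 and Rb6 against Gp01 46 (23); Kc Rb6 and Gp01 against Su(Hw) could not be fitted, with no residual degrees of freedom.

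The replicate block gave 15 for Rb6 against input (3 higher and 12 lower, where 4 and 1 were reported), 46 for Gp01 (26) and 2 for BG3 Rb5 (0). It also gave 55 for Rb6 against Su(Hw) (19) and 3 for Rb6 against Rb5 (0). Each block lies inside a line, so between inputs the fit compared a single BG3 block with a single Kc block. Its values there do not compare the lines, and its count there is left out. Apart from that comparison it moved no other count by over 1.5 times. For the paired Kc Rb5 and inputs it gave 41 (29). Elsewhere at most 2 pairs share numbers, or a pair did not deviate together, so no pairing was assigned. The main fit paired no libraries, also where their deviations went together. Same-numbered libraries still correlated in their deviations for BG3 Rb5 and input (r 0.803), BG3 Su(Hw) and input (0.541), BG3 Rb5 and Su(Hw) (0.571) and Kc Rb6 and Gp01 (0.694). Each of these groups has 2 libraries, so both numbers give the same r. For Kc Rb6 and Gp01 the number also goes with the sequencing class.

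With single libraries left out, counts ran between 3 and 38 for Kc Rb5 against input, 0 and 9 for Rb6, 3 and 32 for Gp01, 36 and 53 for Kc Su(Hw), 0 and 2 for BG3 Rb5, 1 and 55 for BG3 Su(Hw), 1 and 20 for the inputs, 52 and 60 for Kc Rb5 against Su(Hw), 1 and 54 for BG3 Rb5 against Su(Hw), 6 and 31 for Rb6 against Gp01, 0 and 36 for Rb6 against Su(Hw), 2 and 57 for Gp01 against Su(Hw), and 0 and 1 for the Su(Hw) difference between lines.

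With library totals 15 of the 60 genes lay above 0 in Kc Rb5 (0 as reported) and 16 in Gp01 (5), and 50 lay above 0 in BG3 Su(Hw) (60). Among the genes named in the report, signs turned for ones that had not passed. With library totals these were FBgn0019936 (0.49), FBgn0064225 (0.44) and FBgn0028697 (0.40) in Kc Rb5, FBgn0010078 (-0.19) and FBgn0036825 (-0.073) in Kc Su(Hw), and FBgn0019936 (-0.42), FBgn0040007 (-0.37) and FBgn0017545 (-0.16) in BG3 Su(Hw). With the replicate block they were FBgn0003517 in Gp01 (-0.72, and -0.30 without class), and FBgn0002593 (0.12) and FBgn0010078 (-0.19) in Kc Su(Hw). Between inputs the block fit gave FBgn0003279 (0.67) and FBgn0032518 (0.57) the other sign. There it set a single BG3 block against a single Kc block. Those values therefore do not compare the lines and do not show a turned direction between them. With a library left out the genes whose sign turned were FBgn0002593 (0.11 without Su(Hw) 3, 0.015 without Kc input 3) and FBgn0010078 (between -0.018 without Kc input 1 and 0.31 without Kc input 3) in Kc Su(Hw), and FBgn0019936 in Kc Rb5 (between -0.34 and 0.043, without Kc inputs 3 and 2). In BG3 Rb5 without Rb5 1 they were FBgn0261602 (-0.19) and FBgn0015288 (-0.46). In BG3 Su(Hw) FBgn0019936 ran between -0.82 and 1.0, with -0.041 without BG3 input 2, and FBgn0040007 between -0.76 and 1.04, the ends being without Su(Hw) 1 and without Su(Hw) 2. Between inputs FBgn0064225 ran between -0.22 and 0.0080 (without Kc inputs 1 and 5) and FBgn0003279 between -0.95 and 0.18 (without BG3 inputs 1 and 2), and FBgn0032518 had 0.15 without BG3 input 2.

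As a share of all counts in a file, not-unique alignments included, the list took 6.47% with Kc Rb5, 7.51% with Rb6, 3.86% with Gp01, 13.9% with Su(Hw) and 5.44% in Kc inputs. It took 4.90% with BG3 Rb5, 6.54% with Su(Hw) and 3.75% in BG3 inputs. The mean of Kc Rb5 then lay above that of its inputs, with overlapping libraries. Genes inside the list's interquartile range of input levels had Su(Hw) medians of 0.66 in Kc and 1.14 in BG3, against -0.01 and -0.27 over the whole range. Every gene of the list had at least 4930 reads in each library.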
